A study of Homo sapiens with 22 samples.

Results

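The 31 genes described here are long non-coding RNAs named as hosts of small nucleolar RNAs (snoRNAs), which such genes carry in their introns. They are every gene whose symbol is SNHG (small nucleolar RNA host gene) followed by a number, together with GAS5, ZFAS1 and EPB41L4A-AS1. All 31 were found among the 58278 gene entries of the count files. A snoRNA or a related small RNA lies in the RefSeq span of 29 of them, and none was found for SNHG27 and SNHG28. Total RNA (RNA-Seq) and RNA fragments protected by ribosomes (Ribo-Seq, called footprints here) were sequenced from LN308, an established p53-deficient glial cell line that came from an astrocytoma, with 11 libraries per assay. For each assay there were 3 libraries of cells given tunicamycin at 2.5 µg/ml for 2 h and 3 for 6 h, 1 library of cells given thapsigargin at 200 nM for 2 h and 1 for 6 h, and 3 libraries of untreated cells (0 h). Tunicamycin blocks N-linked glycosylation and thapsigargin blocks the SERCA calcium pump, and both are standard ways to disturb protein folding in the endoplasmic reticulum (ER). The protocol names a DMSO control although the 0 h samples are labelled untreated, and no vehicle-treated cells of the later times are compared here. Whether replicates were separate cultures is not stated, so p-values speak only to how far these libraries scatter, and that scatter may be technical.

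In host genes the introns are the product: once the transcript is spliced, snoRNAs are trimmed out of the introns and guide the chemical modification of ribosomal RNA. C/D box snoRNAs guide methylation of the ribose, H/ACA box snoRNAs guide pseudouridylation, and scaRNAs are their relatives in Cajal bodies. The spliced exons of a host such as GAS5 or SNHG1 reach the cytoplasm, where ribosomes translate short open reading frames that end early. This exposes the RNA to nonsense-mediated decay (NMD). In other human cells GAS5 is known to accumulate when translation or NMD is blocked. Several hosts, GAS5 the best known, also belong to the 5′ terminal oligopyrimidine (TOP) class. RNAs of this class start with a C followed by a run of pyrimidines, as ribosomal protein mRNAs do, and their ribosome load follows growth signals. The question the 2 assays answer together is whether the RNA, the footprints and their ratio moved when the ER was stressed.

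The transcript starts of 10 members are shown because the TOP feature is read from the first bases of the RNA. RefSeq start regions (GRCh38.p14) were found for 27 of the 31 members. Of these, 7 (25.9%) had a C at the annotated start followed by at least 4 pyrimidines, against 1429 of 35116 promoters in the whole table (4.07%) and 48 of 85 ribosomal protein genes (56.5%). The windows run from 10 bases before the start to 30 bases from it, 5′ to 3′, with the pyrimidine run in capitals.
SNHG32: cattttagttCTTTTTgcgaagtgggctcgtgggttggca
ZFAS1: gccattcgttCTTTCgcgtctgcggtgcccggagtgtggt
SNHG5: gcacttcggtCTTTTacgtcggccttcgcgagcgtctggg
SNHG18: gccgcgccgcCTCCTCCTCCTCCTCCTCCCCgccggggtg
SNHG12: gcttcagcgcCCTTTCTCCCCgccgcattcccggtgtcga
SNHG19: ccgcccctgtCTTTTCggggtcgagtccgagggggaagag
SNHG4: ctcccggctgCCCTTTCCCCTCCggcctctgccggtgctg
GAS5: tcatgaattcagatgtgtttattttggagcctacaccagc
SNHG1: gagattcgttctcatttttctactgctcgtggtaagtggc
EPB41L4A-AS1: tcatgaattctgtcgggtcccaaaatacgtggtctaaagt
The first 7 hold the run, and the last 3, shown because several results concern them, have none at the RefSeq start. On the plus strand lie SNHG32 at chr6:31834906-31834945, ZFAS1 at chr20:49278632-49278671, SNHG18 at chr5:9546190-9546229, SNHG4 at chr5:139274091-139274130 and EPB41L4A-AS1 at chr5:112160516-112160555. On the minus strand lie SNHG5 at chr6:85678704-85678743, SNHG12 at chr1:28581844-28581883, SNHG19 at chr16:2155329-2155368, GAS5 at chr1:173869016-173869055 and SNHG1 at chr11:62855856-62855895. Motifs of stress factors were searched on both strands of the 300-base promoters. TGATGNAA, which ATF4 binds together with C/EBP proteins, was in 0 of 27 members and 3.62% of all promoters. The ER stress element was in 0 of 27 and 0.0769%, and the cyclic AMP response element in 0 of 27 and 1.85%. CCAAT, with which the ER stress element begins and may overlap, was in 7 of 27 and 34.6%. No match says only that these letters are not in this window.

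The RNA-Seq libraries held 101371822 to 166586145 counts and the Ribo-Seq libraries 4387173 to 29183769. Levels are given as CPM, the counts scaled to a common library size, after adjustment by the trimmed mean of M-values (TMM), they are not divided by gene length, and they compare samples, not genes. Over all libraries the members' RNA counts ran between 81 (SNHG27) and 322087 (GAS5), and their footprint counts between 0 (SNHG27) and 874966 (SNHG1). RNA-Seq replicate 1 of the untreated cells stood apart, with counts in 53489 genes, where each remaining RNA-Seq library had counts in 38264 to 40331. In that library the RNA of GAS5, SNHG1, SNHG3, SNHG5, SNHG12 and ZFAS1, for example, was below both other untreated libraries. Other members went the other way: the RNA of EPB41L4A-AS1, SNHG4, SNHG8 and SNHG18, for example, was above both. Of 10 glial markers 7 were at 1 CPM or more in all 11 RNA-Seq libraries, while AQP4 and SOX9, markers of mature astrocytes, were below 1 CPM in all 11 and GFAP lay between 0.678 and 3.38 CPM. The 5 blood markers summed to at most 2.25 CPM. Of the epithelial markers, KRT8 and KRT18 were expressed and EPCAM, CDH1 and KRT19 were below 1 CPM. The list summed to 84.6 to 138 CPM after 6 h of tunicamycin and 55.8 to 70.4 CPM in untreated cells, and its part in the members' values was not tested. All 8 ER stress genes followed had higher RNA after 6 h of tunicamycin by edgeR's quasi-likelihood test. HSPA5, the ER chaperone BiP, was at 11235 ± 3977 CPM in treated and 885 ± 335 CPM in untreated cells (SD, n = 3 each). DDIT3, the transcription factor CHOP, was at 324 ± 217 CPM in treated and 11.2 ± 2.73 CPM in untreated cells.

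Already in untreated cells, the host RNAs divided into a few with very many footprints per RNA and many that sat close to other genes. The ratio of footprints to RNA, tested in 1 edgeR model over both assays, was higher than that of the average gene for 6 members (SNHG1, GAS5, SNHG5, SNHG25, SNHG6 and EPB41L4A-AS1) and lower for 4 (SNHG4, SNHG3, SNHG26 and SNHG20) at an adjusted p under 0.05. Of all 39928 genes in the model 27.4% passed, 7.09% higher and 20.3% lower. Among the 18500 genes with enough counts in each assay, 10.5% passed as higher and 11.3% as lower. The 29 members present had a median log2 ratio of 0.12 against -0.08 for all of them, and 18 of the 29 were above that median. A high ratio in these data means many Ribo-Seq reads per RNA-Seq read and does not by itself show translation, since reads of a snoRNA that lies inside a host can be counted with it.

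SNHG1, host of 8 C/D snoRNAs, had the highest ratio of the members. Its footprints were 11067, 3318 and 16452 CPM in the 3 untreated libraries, while its RNA was 58.7, 108 and 97.8 CPM, and its log2 ratio of 6.82 ± 0.705 (SE; adjusted p = 8.46e-06) is 113-fold. GAS5, with 10 C/D and 1 H/ACA snoRNA in its span, had footprints of 4095, 1574 and 2123 CPM, RNA of 138, 225 and 233 CPM, and a log2 ratio of 3.67 ± 0.357 (12.7-fold, adjusted p = 1.36e-06). In each of these pairs every footprint value was above every RNA value, and both calls held in all 14 alternative analyses. SNHG5, a C/D host with 2 snoRNAs, had footprints of 1456, 337 and 272 CPM and RNA of 80.6, 112 and 106 CPM, a log2 ratio of 2.75 ± 0.501 (6.74-fold, adjusted p = 0.000917). The first of its footprint libraries was far above the other two. The log2 ratio ran between 1.59 and 3.28 over the alternatives, in all 14 of which it was called.

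The H/ACA host EPB41L4A-AS1 had a smaller and more even excess, with footprints of 35.3, 27.8 and 31.1 CPM and RNA of 18.9, 16.7 and 17.3 CPM, a log2 ratio of 0.74 ± 0.219 (adjusted p = 0.0175, called in 12 of 14 alternatives). SNHG25, a very short C/D host, was at 2.06 ± 0.564 (adjusted p = 0.0113) and SNHG6 at 1.39 ± 0.357 (adjusted p = 0.00787). At the other end stood 2 H/ACA hosts whose guests are abundant. SNHG3, host of SNORA73, had footprints of 21, 93.2 and 82.7 CPM against RNA of 93.6, 244 and 264 CPM, a log2 ratio of -1.66 ± 0.407 (adjusted p = 0.00586). SNHG4, host of SNORA74A, had footprints of 5.90, 7 and 3.89 CPM against RNA of 26.7, 22.9 and 20.6 CPM, a log2 ratio of -2.17 ± 0.475 (adjusted p = 0.00292). Both RNAs therefore had fewer footprints than RNA in each untreated library. SNHG26 was called lower from only 0, 3 and 1 footprint counts, against 190, 240 and 162 RNA counts, so its fitted value is no measure of size. SNHG20, at -1.02 ± 0.354 (adjusted p = 0.038), was called in 2 of 14 alternatives. With the replicate number as a block, the fit gives this ratio at the level of replicate 1, not as the mean of the untreated libraries. In that fit 10 members were called (22.6% of genes), with SNHG22 (adjusted p = 0.0245) in place of SNHG20 (adjusted p = 0.103). SNHG22 had 1 footprint count and 168 RNA counts in untreated replicate 1.

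**Figure D1:**
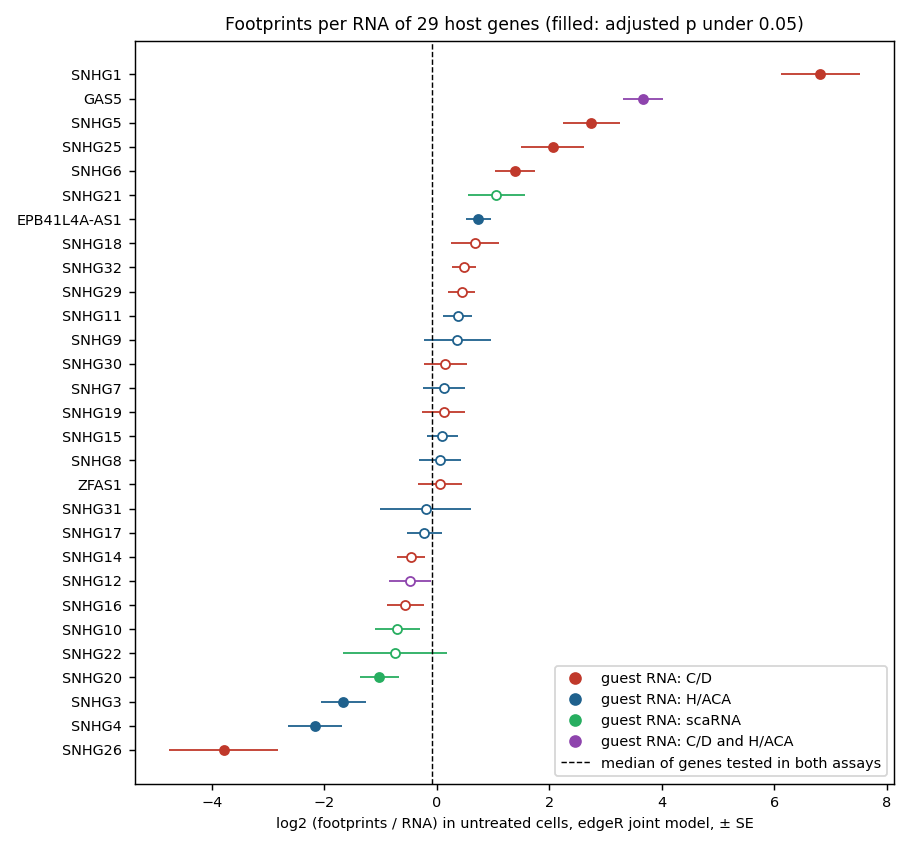
Log2 ratio of footprints to RNA in untreated cells (x axis, edgeR joint model, bars ± SE) for the 29 host genes tested in both assays (y axis), coloured by the kind of small RNA in the RefSeq span, filled where the adjusted p is under 0.05; the dashed line is the median of all genes tested in both assays (-0.08). SNHG1, GAS5, SNHG5 and SNHG25 lie above 2 and SNHG4 below -2; the lowest point, SNHG26, rests on 4 footprint counts and its position is no measure of size.

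By the kind of guest, the median log2 ratio was 0.44 for 13 C/D hosts (-0.56 to 6.82 without SNHG26), 0.08 for 10 H/ACA hosts (-2.17 to 0.74), -0.72 for 4 scaRNA hosts (-1.02 to 1.06) and 1.59 for 2 hosts of both C/D and H/ACA snoRNAs, GAS5 at 3.67 and SNHG12 at -0.48. These values overlap and were not tested. The C/D host ZFAS1 was at 0.05, SNHG29 at 0.44 and SNHG16 at -0.56, so many footprints per RNA were not shared by all C/D hosts. Of 26 other long non-coding RNAs followed, none was called higher and 16 were called lower (median log2 ratio -1.49). Examples, chosen after their values were seen, are the nuclear RNAs NEAT1 at -2.62 and KCNQ1OT1 at -3.53. Of 36 protein-coding snoRNA hosts, 1 was called higher and 21 lower (median -1.25).

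The guest snoRNAs have entries of their own, which show how far small RNAs enter the Ribo-Seq libraries. Leaving out SNHG14, a locus of 595855 bases with long arrays of guests, 52 guest entries were listed and 26 of them held 0 counts in all 22 libraries. Of 19 guest entries in the model, 11 were called higher and 3 lower in footprints per RNA (median log2 ratio 4.90). SNORA74A, in SNHG4, had 2751, 1907 and 2919 CPM in the untreated Ribo-Seq libraries against 37.4, 50.5 and 61.3 CPM in RNA-Seq. SNORA13, in EPB41L4A-AS1, had 574, 170 and 220 CPM against 2.64, 5.42 and 5.53 CPM. Of their hosts, SNHG4 was called lower and EPB41L4A-AS1 higher in footprints per RNA, and the relation of guest to host reads was not tested. For GAS5 only 2 of the 11 guests were matched to entries, with 29 footprint counts in all libraries together, and for SNHG1 7 of 8, with 1072 footprint counts. The part of guest reads in the GAS5 and SNHG1 values was not tested.

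After 6 h of tunicamycin most host RNAs were somewhat higher and SNHG4 was lower, but in the fit without pairing no member passed an adjusted p of 0.05, while 1.5% of 41130 genes did. Of the 31 members 25 had a positive log2 fold change, against 37% of all genes, and 4 were higher and 1 lower at an unadjusted p under 0.05 (6.33% and 11% of all genes). The members' median log2 fold change was 0.30 and that of all genes -0.27. With library size alone as the scale these medians were 0.00 and -0.58, so the members stood 0.57 and 0.58 above the rest under the 2 scalings. In 11 members all treated libraries were above all untreated ones and in 1 they were all below, where 10.5% and 10.6% of all genes did so. Without replicate 1 of every group the gap shrank to 0.15, with medians of 0.13 and -0.02. The precision is modest: in simulated RNA-Seq data of this comparison 0% of genes changed 2-fold were called, 61.2% of those changed 4-fold and 95.5% of those changed 8-fold. The simulation held no library that stood apart and no pairing, and changed only well counted genes. These shares are therefore only a guide to the real libraries.

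EPB41L4A-AS1, which overlaps EPB41L4A and hosts SNORA13, was higher in both assays. Its RNA was 33.8, 26.7 and 27.4 CPM after 6 h of tunicamycin and 18.9, 16.7 and 17.3 CPM in untreated cells, a log2 fold change of 0.73 ± 0.206 (adjusted p = 0.129). Its footprints were 54.3, 59.9 and 62.5 CPM after treatment and 35.3, 27.8 and 31.1 CPM in untreated cells, a log2 fold change of 0.91 ± 0.233 (adjusted p = 0.114). The groups did not overlap in either assay. With the replicate number as a block, which the pairing check allows for both assays here, EPB41L4A-AS1 rose in RNA (0.72 ± 0.143, adjusted p = 0.0342) and in footprints (0.93 ± 0.199, adjusted p = 0.0468). In these fits 3.95% of RNA-Seq genes and 2.53% of Ribo-Seq genes were called. Against 2 h of tunicamycin it rose likewise with the block, by 0.71 in RNA (adjusted p = 0.0459) and 0.98 in footprints (adjusted p = 0.0394). The neighbouring entries did not follow it: EPB41L4A had an RNA log2 fold change of -0.14 ± 0.352. SNORA13 had 166, 173 and 165 CPM of footprints after treatment and 574, 170 and 220 CPM in untreated cells.

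SNHG4 went the other way. Its RNA was 10.1, 13.8 and 12.2 CPM after 6 h of tunicamycin and 26.7, 22.9 and 20.6 CPM in untreated cells, a log2 fold change of -0.96 ± 0.238 (adjusted p = 0.0877), and all treated libraries were below all untreated ones. With the replicate block it fell by 0.98 ± 0.211 on the log2 scale (adjusted p = 0.0462), and against 2 h of tunicamycin it fell by 1.03 (adjusted p = 0.0473). After 6 h of thapsigargin, in 1 library, it was at 7.33 CPM. SNHG4 shares its locus with MATR3, which encodes a nuclear matrix protein and has 2 entries in the files. The log2 fold change at 6 h of tunicamycin was 0.07 ± 0.241 for one and -0.95 ± 0.31 for the other (adjusted p = 0.181), so reads of SNHG4 and the second entry may not be separable. Its guest SNORA74A had 15, 53.6 and 59.9 CPM of RNA in treated and 37.4, 50.5 and 61.3 CPM in untreated cells, which overlap. In such bulk libraries fewer expressing cells and less RNA per cell cannot be told apart.

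SNHG32, which lies among the HLA class III genes and was called C6orf48, and SNHG8 had the highest log2 fold changes of RNA. SNHG32 RNA was 122, 89.5 and 98.1 CPM after 6 h of tunicamycin and 47.8, 61.9 and 57.3 CPM in untreated cells (0.89 ± 0.244, adjusted p = 0.119). Its footprints were 134, 128 and 157 CPM against 88.4, 75.9 and 81.1 CPM (0.77 ± 0.246, adjusted p = 0.219). SNHG8, an H/ACA host, had RNA of 54, 31.9 and 32.1 CPM after treatment and 22.9, 21.7 and 19 CPM in untreated cells (0.89 ± 0.297, adjusted p = 0.187). SNHG15, an H/ACA host known to turn over fast, had RNA of 58.7, 39.3 and 39.1 CPM after treatment and 25, 30.9 and 30.4 CPM in untreated cells (0.67 ± 0.26, adjusted p = 0.24). Groups did not overlap for any of the 3, and replicate 1 was the highest of the treated libraries each time. ZFAS1, host of the SNORD12 family, had RNA of 82.1, 47 and 48.5 CPM after treatment and 29, 36.9 and 40.7 CPM in untreated cells (0.74 ± 0.337, adjusted p = 0.291). None of these 4 passed edgeR's adjusted test on all libraries, with or without the block, while DESeq2 called SNHG32 (adjusted p = 0.013). Without untreated replicate 1, the library that stood apart, the log2 fold changes were 0.80 for SNHG32, 0.95 for SNHG8, 0.58 for SNHG15 and 0.61 for ZFAS1, and none passed. With the block and without that library edgeR called SNHG32 (0.64 ± 0.0983, adjusted p = 0.000743), SNHG8 (0.66 ± 0.095, adjusted p = 0.000444) and SNHG15 (0.36 ± 0.0849, adjusted p = 0.0092), in a fit that called 23.9% of all genes. ZFAS1 was at 0.28 there (adjusted p = 0.0809).

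**Figure D2:**
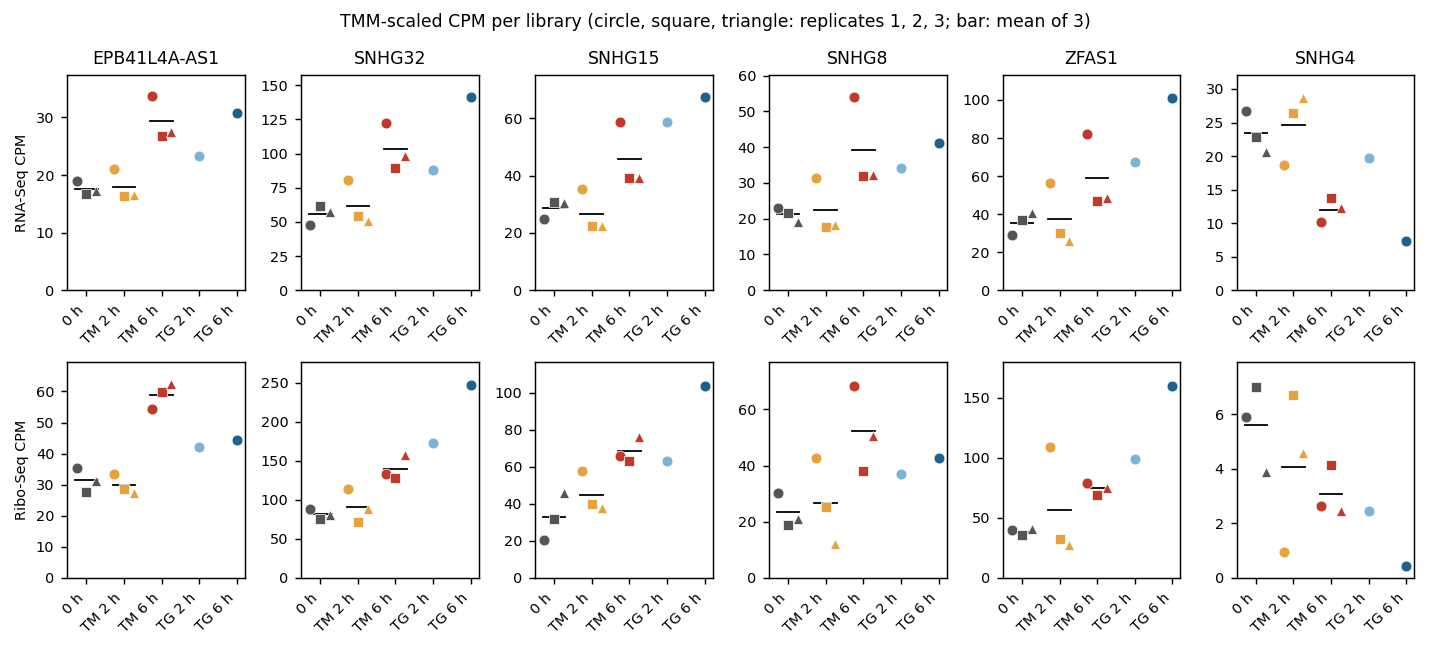
TMM-scaled CPM per library of 6 host genes in RNA-Seq (upper row) and Ribo-Seq (lower row) for untreated cells (0 h), tunicamycin (TM) at 2 h and 6 h and thapsigargin (TG) at 2 h and 6 h; symbols are replicates and bars are means of 3. EPB41L4A-AS1 at 6 h of tunicamycin lies above untreated cells in each assay, and SNHG4 RNA lies below.

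GAS5, SNHG1 and SNHG5 had higher mean RNA after treatment, while their footprints overlapped between the groups; none of these differences passed the test. GAS5 RNA was 317, 235 and 251 CPM after 6 h of tunicamycin and 138, 225 and 233 CPM in untreated cells (0.43 ± 0.291, adjusted p = 0.411). Its footprints were 2688, 2041 and 2438 CPM against 4095, 1574 and 2123 CPM. SNHG1 RNA was 214, 121 and 108 CPM after treatment and 58.7, 108 and 97.8 CPM in untreated cells (0.74 ± 0.436, adjusted p = 0.36). Its footprints were 9315, 2828 and 7519 CPM against 11067, 3318 and 16452 CPM. SNHG5 RNA was 190, 128 and 135 CPM against 80.6, 112 and 106 CPM in untreated cells (0.60 ± 0.28, adjusted p = 0.298). Its footprints were 342, 372 and 307 CPM against 1456, 337 and 272 CPM. The largest difference in each RNA pair comes from replicate 1, where the untreated library is the one that stood apart. Without it the RNA log2 fold changes were 0.23 for GAS5, 0.52 for SNHG1 and 0.47 for SNHG5, and with the block as well 0.05, 0.09 and 0.25.

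The other well expressed members lay close to their untreated level or varied with the replicate, apart from SNHG17, which was higher in each same-numbered pair. SNHG29 RNA was 177, 118 and 141 CPM after 6 h of tunicamycin and 97.8, 106 and 110 CPM in untreated cells (0.48 ± 0.245, adjusted p = 0.326), without overlap; without untreated replicate 1 the log2 fold change was 0.44, and with the block as well 0.26 (adjusted p = 0.0484). SNHG3, SNHG7, SNHG16 and SNHG17 overlapped between groups in RNA, with log2 fold changes of 0.15, 0.37, 0.21 and 0.42. Those of SNHG3 and SNHG16 turned negative under library size alone (-0.05 and -0.07) and with the block without untreated replicate 1 (-0.13 and -0.14). SNHG17, host of the SNORA71 family, had RNA of 69.2, 135 and 143 CPM after treatment and 48.6, 104 and 107 CPM in untreated cells. With the block edgeR gave 0.43 ± 0.165 (adjusted p = 0.199). Its RNA was called higher with the block without untreated replicate 1, in a fit that called 23.9% of all genes. Its footprints were 131, 163 and 151 CPM against 49.8, 99 and 81.8 CPM in untreated cells (0.95 ± 0.275, adjusted p = 0.17). With the block they were at 1.00 ± 0.223 (adjusted p = 0.0538). The 7 members with a pyrimidine run at the RefSeq start had no common direction in RNA. Their log2 fold changes were 0.89 for SNHG32, 0.74 for ZFAS1, 0.60 for SNHG5, 0.19 for SNHG18, 0.03 for SNHG12, -0.22 for SNHG19 and -0.96 for SNHG4. The run is not the same as membership of the TOP class: it was found in only 56.5% of ribosomal protein genes and not in GAS5. SNHG12 and SNHG18 were negative under library size alone (-0.17 and -0.24), and SNHG12 was called lower (-0.35, adjusted p = 0.0377) with the block without untreated replicate 1.

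Over all 29 members tested in Ribo-Seq, the median log2 fold change of footprints at 6 h of tunicamycin was 0.38, against -0.07 for all 19411 genes. No member passed without the block, where 0.84% of genes did. Without adjustment, 6 were higher and none lower at a p under 0.05 (5.17% and 6.9% of genes). In 8 members every treated library was above every untreated one, and in none below, where 9.54% and 11.1% of genes did so. Those with the smallest unadjusted p were EPB41L4A-AS1, SNHG17, SNHG15, SNHG32, SNHG8 and ZFAS1. ZFAS1 footprints were 79.3, 69.4 and 74.9 CPM after treatment and 39.6, 35.6 and 40.6 CPM in untreated cells (0.95 ± 0.43, adjusted p = 0.407). SNHG15 footprints were 66, 63.1 and 76.1 CPM against 20.6, 32 and 45.9 CPM (1.06 ± 0.309, adjusted p = 0.171). For ZFAS1 the spread within groups was small, and the footprints of replicate 1 at 2 h, 109 CPM, were above all of these.

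**Figure D3:**
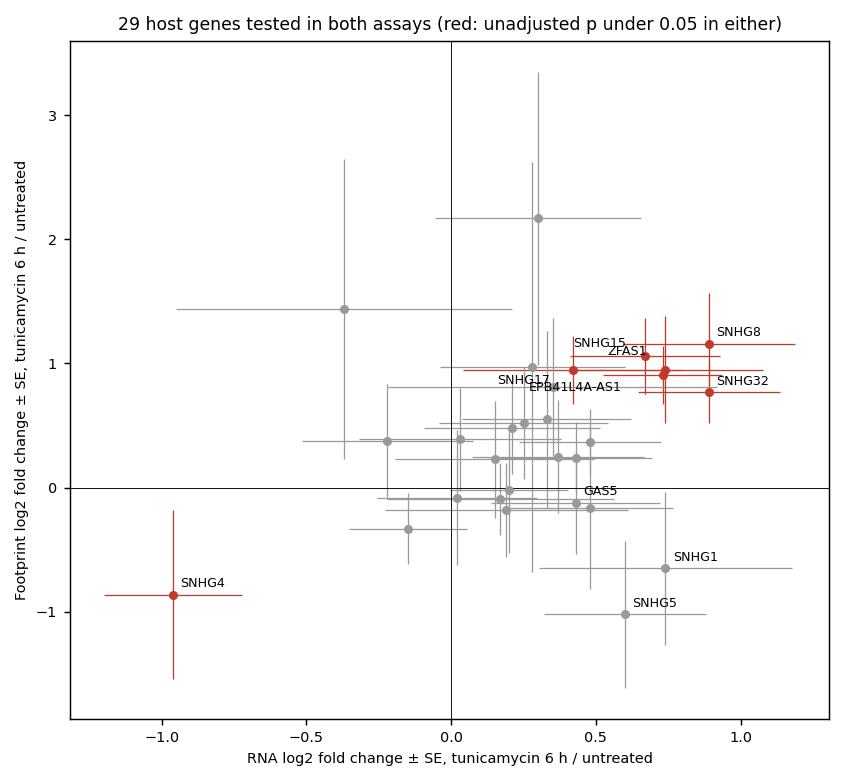
Log2 fold change of RNA (x axis) and of footprints (y axis), tunicamycin at 6 h over untreated, for the 29 members tested in both assays, with bars of ± SE; red marks an unadjusted p under 0.05 in either assay. EPB41L4A-AS1, SNHG8, SNHG15, SNHG17, SNHG32 and ZFAS1 lie in the upper right, SNHG4 in the lower left, and GAS5, SNHG1 and SNHG5 to the right of 0 in RNA and below 0 in footprints.

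The footprint-to-RNA ratio did not pass the test for any member at 6 h or 2 h of tunicamycin or between them. In these 3 comparisons 0% of the 39928 genes passed, and 2998, 2775 and 1409 had an unadjusted p under 0.05. DESeq2 also called no member there. The members' median change of the log2 ratio at 6 h against untreated cells was 0.23, against 0.16 for all genes. EPB41L4A-AS1 was at 0.30 ± 0.308, SNHG32 at -0.01 ± 0.308 and GAS5 at -0.48 ± 0.455. SNHG5, at -1.54 ± 0.667 (adjusted p = 0.639), was the 1 member with an unadjusted p under 0.05. Its value ran between -2.02 and -0.12 over the alternatives and rests on the high footprint value of untreated replicate 1. In data simulated in the same way for this comparison, 0% of genes changed 2-fold, 37.3% changed 4-fold and 69.7% changed 8-fold were called. Changes of the ratio of the size seen in the RNA were therefore unlikely to be called.

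At 2 h of tunicamycin no member passed in RNA, where 0.00973% of genes did, or in footprints, where 0% did and 619 genes had an unadjusted p under 0.05. The members' median log2 fold change was 0.06 in RNA and 0.16 in footprints, against -0.17 and -0.02 for all genes. The replicates went separate ways: GAS5 RNA was 261, 156 and 160 CPM after 2 h and 138, 225 and 233 CPM in untreated cells, so that replicate 1 was higher and replicates 2 and 3 lower. In an analysis of replicates 2 and 3 alone, added after the data were seen, 6 members were called lower in RNA (4.4% of genes called). They were GAS5 (-0.52), SNHG12 (-0.57), SNHG15 (-0.44), SNHG7 (-0.55), SNHG3 (-0.41) and ZFAS1 (-0.45). Replicate 1 was left out with its values known, so these calls cannot test whether the RNA of the 6 members fell. In replicate 1 these 6 were all higher after treatment, against the untreated library that stood apart. With the block and without that library, 3 members were called, all lower (2.54% of genes): GAS5 (-0.45, adjusted p = 0.0373), SNHG12 (-0.50, adjusted p = 0.0431) and SNHG15 (-0.42, adjusted p = 0.0297). The pairing check does not allow the block in this comparison (lowest r 0.0695), so these calls rest on a pairing that the libraries do not show. With all libraries the 6 lay between -0.12 and 0.08, and none passed. Between 6 h and 2 h of tunicamycin no member passed without the block (0.742% of genes in RNA and 0.752% in footprints). In RNA 6 members were higher without overlap and 1 lower, where 10.3% and 9.21% of genes did so. In footprints 4 were higher and 0 lower, where 9.1% and 8.53% did so.

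Thapsigargin, with 1 library per time, has no replicate check, and its tests borrow the spread of the other groups. At 6 h the members split by assay and by gene. SNHG32 was the 1 member to pass in footprints, where 0.974% of genes did, at 247 CPM after thapsigargin and 88.4, 75.9 and 81.1 CPM in untreated cells (1.59 ± 0.321, adjusted p = 0.0361). Without untreated replicate 2 or 3 of Ribo-Seq it no longer passed. Its RNA was 141 CPM after thapsigargin and 47.8, 61.9 and 57.3 CPM in untreated cells (1.35 ± 0.321, adjusted p = 0.0658; without untreated replicate 1, 1.24 and adjusted p = 0.0417). In RNA no member passed, where 1.79% of genes did, although 8 were higher and 2 lower at an unadjusted p under 0.05 (8.5% and 8.48% of genes). ZFAS1 reached 101 CPM of RNA and 160 CPM of footprints, above every untreated library (log2 fold changes of 1.51 ± 0.442 and 2.05 ± 0.553, adjusted p = 0.117 and 0.113). SNHG15 reached 67.5 CPM of RNA and 104 CPM of footprints (1.23 ± 0.344 and 1.66 ± 0.401, adjusted p = 0.105 and 0.0764). SNHG4 was at 7.33 CPM of RNA (-1.67 ± 0.372, adjusted p = 0.0522; without untreated replicate 1, -1.57 and adjusted p = 0.033). Without that library the RNA log2 fold changes of ZFAS1 and SNHG15 were 1.38 and 1.14. EPB41L4A-AS1 was at 30.7 CPM of RNA and 44.3 CPM of footprints, also above every untreated library. SNHG6 footprints were 182 CPM after thapsigargin and 71.1, 53.8 and 65.5 CPM in untreated cells (1.52 ± 0.383, adjusted p = 0.0879). SNHG3 footprints were 14.1 CPM against 21, 93.2 and 82.7 CPM (-2.21 ± 0.779, adjusted p = 0.221), so that SNHG3 lay on the other side of its untreated level.

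GAS5, SNHG1 and SNHG5 had more RNA and far fewer footprints under thapsigargin than in any untreated library. GAS5 RNA was 270 CPM at 2 h and 329 CPM at 6 h, and its footprints were 506 and 842 CPM at these times, against 4095, 1574 and 2123 CPM in untreated cells. SNHG1 RNA was 188 CPM at 2 h and 182 CPM at 6 h, and its footprints were 385 and 2009 CPM, against 11067, 3318 and 16452 CPM in untreated cells. SNHG5 RNA was 157 CPM at 2 h and 228 CPM at 6 h, and its footprints were 140 and 173 CPM, against 1456, 337 and 272 CPM in untreated cells. In each of the 3 genes the thapsigargin footprints were below the lowest untreated library and the RNA was above the highest one. SNHG5 footprints were also at 143 CPM in replicate 3 at 2 h of tunicamycin. Low footprints were seen in other members too. SNHG4 had 2.45 CPM at 2 h and 0.45 CPM at 6 h, against 5.90, 7 and 3.89 CPM. SNHG10 had 2.91 and 1.8 CPM, against 3.69, 9.06 and 7.77 CPM. RNA of SNHG4 and SNHG10 was not above every untreated library. The RNA differences did not pass (at 6 h 0.73, 1.05 and 1.20 for GAS5, SNHG1 and SNHG5, or 0.52, 0.82 and 1.06 without untreated replicate 1). The RNA-Seq thapsigargin libraries carry the number 1. With the full block the 6 h values were 0.59, 0.55 and 0.96, and with the block without that untreated library -0.01, -0.30 and 0.45. In that last fit the level of replicate 1 comes from the tunicamycin libraries, and GAS5 and SNHG1 RNA was not higher. Replicate 1 of tunicamycin at 2 h and 6 h held 261 and 317 CPM of GAS5 RNA. For SNHG1 RNA these were 175 and 214 CPM.

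**Figure D4:**
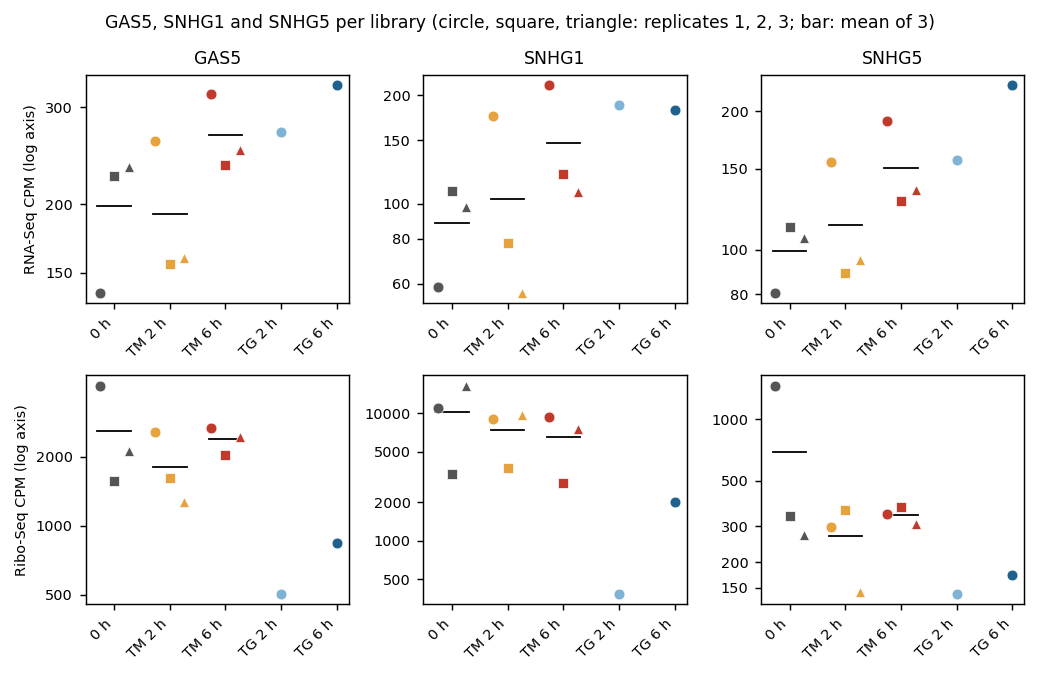
TMM-scaled CPM per library (log axes) of GAS5, SNHG1 and SNHG5 in RNA-Seq (upper row) and Ribo-Seq (lower row) for untreated cells (0 h), tunicamycin (TM) and thapsigargin (TG) at 2 h and 6 h; symbols are replicates and bars are means of 3. The thapsigargin points are above all untreated points in RNA and below them in footprints.

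As changes of the log2 footprint-to-RNA ratio at 6 h of thapsigargin these were -2.26 ± 0.657 for GAS5, -3.30 ± 1.14 for SNHG1 and -3.09 ± 0.977 for SNHG5, with adjusted p of 0.546, 0.6 and 0.563. In this comparison 0% of genes passed and 2633 had an unadjusted p under 0.05. At 2 h they were -2.64 ± 0.662, -5.65 ± 1.23 and -2.79 ± 0.97, with adjusted p of 0.866, 0.852 and 1, and 0.0025% of genes passed. DESeq2 called GAS5 (adjusted p = 0.0471) and SNHG1 (adjusted p = 0.000939) at 2 h. Other RNAs also had fewer Ribo-Seq reads: 14 of 15 guest snoRNA entries had lower footprints at 6 h of thapsigargin (median log2 fold change -1.44) and all 15 at 2 h (median -3.29). SNORA74A was at 476 CPM at 2 h and 931 CPM at 6 h against 2751, 1907 and 2919 CPM in untreated cells. The 23 other long non-coding RNAs tested had a median of -0.83 at 6 h. All genes had a median of -0.27 at 6 h and -0.15 at 2 h. Of the 29 members 11 had lower footprints at 6 h and 14 at 2 h, with medians of 0.46 and 0.08. Whether the GAS5, SNHG1 and SNHG5 values share their source with those of the guests was not tested. In the remaining thapsigargin comparisons at 2 h no member passed, where 0.0997% of genes did in RNA and 0.0824% in footprints.

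Few genes of the related lists were called at 6 h of tunicamycin, where 1.5% of all genes were called in RNA and 0.84% in footprints. At these shares, 0 or 1 gene called in a list of this size says nothing about the list as a whole. Of 16 NMD factors, among them the helicase UPF1 and the kinase SMG1, none was called in RNA (median log2 fold change 0.32) or in footprints (median 0.07). Of 14 core proteins of the snoRNA particles, none was called in either assay (medians 0.29 and 0.40). Of 16 mRNAs reported as NMD targets 2 rose in RNA: ATF4, the transcription factor of the integrated stress response and itself an ER stress gene, by 1.63 ± 0.299 (adjusted p = 0.0256), and TBL2, an ER membrane protein, by 1.03 ± 0.213 (adjusted p = 0.0431). Of 36 protein-coding snoRNA hosts 1 fell, HSPA8, the constitutive cytosolic HSP70, by 1.86 in RNA (adjusted p = 0.0144) and 1.52 in footprints (adjusted p = 0.0323) on the log2 scale. The list's median was 0.17 in RNA. Of 26 other long non-coding RNAs 1 rose, LINC-PINT, a p53-linked transcript, at 1.72 ± 0.291 (adjusted p = 0.0189). Of the 3 other non-coding hosts none did.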

How the data were processed

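RNA-Seq and Ribo-Seq gene counts of LN308 cells were used as the authors deposited them: whole-number, unnormalized counts, 1 table per library, with no further scaling seen in the files. STAR 2.5.4b, HTSeq, DESeq2 and the GRCh38 build are named per the submitters' processing notes. No source used here gives the annotation release, the counted features or the strandedness of counting, so overlapping and antisense genes and snoRNAs inside hosts may share reads. Per the labels' protocols, cells for Ribo-Seq were held in cycloheximide at 0.1 mg/ml for 5 min and fragments of 27 to 33 nt were taken from 80S monosomes.

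Counts were analysed with edgeR 4.0.16 in R 4.3.3: TMM scaling, a filter at a minimum count of 10, and robust quasi-likelihood fits with Benjamini-Hochberg adjustment over all genes, called at an adjusted p under 0.05. The 5 groups of an assay shared a fit; a joint model of all 22 libraries gave the footprint-to-RNA ratio, as an interaction for its change. DESeq2 1.42.0, other scaling and filters, a replicate block and fits without single libraries were alternatives. The scripts were tested on simulated data. RNA-Seq tested 41130 genes with 31 members, Ribo-Seq 19411 with 29, and the joint model 39928 with 31. Same-numbered libraries deviated together (every r over 0.1) in all tunicamycin comparisons within an assay except RNA at 2 h against untreated: r was 0.226 to 0.466 for RNA and 0.152 to 0.257 for footprints at 6 h against untreated.

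The members and all gene lists were chosen with earlier results of these data known. Members given in full are GAS5, ZFAS1, EPB41L4A-AS1, the 9 others with the highest mean RNA CPM over the groups, and every member called in any comparison; others are named at the ends of a range or as holders of a start motif. Of the other lists, genes called at 6 h of tunicamycin are named, up to 4 per list, with HSPA5 and DDIT3. Gene names, coordinates and start regions are from RefSeq (GRCh38.p14).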

Additional observations from a re-analysis of the deposited data

Results flagged for a closer look

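In 4 cases the single thapsigargin library and all 3 tunicamycin libraries of the same time lay on opposite sides of the untreated mean. The difference was not tested. The share of all genes placed in this way is not given here, so the cases do not show a difference between the drugs. SNHG20 RNA was at 11.1 CPM after 6 h of thapsigargin and 13.3 to 15 CPM after 6 h of tunicamycin. Its untreated mean was 12.3 CPM, from libraries at 12, 12.9 and 12 CPM. SNHG7 RNA was at 44.3 CPM after thapsigargin and 59.8 to 61 CPM after tunicamycin at 6 h, with an untreated mean of 46.8 CPM. Its untreated libraries, at 28.5, 61.6 and 50.2 CPM, spanned the values of both drugs. SNHG20 footprints were at 3.03 CPM after 2 h of thapsigargin and 6.98 to 7.98 CPM after 2 h of tunicamycin, with an untreated mean of 6.58 CPM. Here too the untreated libraries, at 2.69, 8.95 and 8.1 CPM, spanned the values of both drugs. SNHG26 footprints were at 0 CPM after 2 h of thapsigargin and 0.241 to 1.67 CPM after tunicamycin, with an untreated mean of 0.151 CPM, levels that rest on a few counts.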

How the results depend on the processing

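Most calls depended on the tool, the filter or the block. Where a count of members called has no share of all genes beside it, the fit may have called more genes throughout. Such a count is no result about the members. Values that passed the reported test kept their sign, but 63 alternative values of members that did not pass had the other sign, and some of those were called. In RNA at 6 h of tunicamycin against untreated cells, members called numbered 0 as reported, 3 with DESeq2, 1 with a mean CPM of at least 5, 2 with the replicate block, 8 with the block and without untreated replicate 1, and 6 with replicates 2 and 3 alone. For 6 h against 2 h these were 0, 2, 2, 2, 15 and 13, and the fit with 15 called 33.1% of all genes. At 2 h against untreated the last 2 settings gave 3 and 6 in place of 0; the replicate block gave 0 there, where numbers do not pair the samples (r 0.0695 to 0.464). At 6 h of thapsigargin, RNA calls were 0 as reported, 7 with DESeq2 and 5 with a mean CPM of at least 5. The block without untreated replicate 1 gave 10, where 26.8% of all genes were called. Leaving out single libraries gave 0 to 3, with 3 without untreated replicate 1. At 2 h of thapsigargin the block without that library gave 4, where 12.8% of all genes were called. Of all genes, 7.3% were called by DESeq2, 23.9% with the block without that library and 19.4% with replicates 2 and 3 alone, for RNA at 6 h of tunicamycin. Footprint calls at 6 h of tunicamycin against untreated were 0 as reported, 4 with DESeq2, 1 with the replicate block and 2 with replicates 2 and 3 alone; against 2 h they were 0, 1, 1 and 3, with 1 at a mean CPM of at least 5 and 0 to 1 leaving out single libraries (ZFAS1 without tunicamycin 2 h replicate 1). Footprint calls at 6 h of thapsigargin were 1 as reported, 5 with DESeq2, 7 without a filter and 0 to 2 leaving out single libraries; at 2 h DESeq2 and no filter gave 2 each. The ratio at 2 h of thapsigargin had 2 calls with DESeq2. The untreated ratio, with 10 calls, had 6 at a mean CPM of at least 5 and 8 to 14 otherwise. The block changed no call of a paired comparison beyond these. In the untreated ratio, which the block gives at the level of replicate 1, SNHG22 was called in place of SNHG20. The cause of these shifts was not tested. Replicates 2 and 3 alone and the limit to genes passing the filter in each assay were chosen after seeing the data. Ribo-Seq depth limits members with few footprints, such as SNHG26.

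By gene these are as follows, with the reported log2 value first, "block less U1" for the replicate block without untreated replicate 1 of RNA-Seq, and ranges over fits without single libraries. RNA at 6 h of tunicamycin: SNHG12 (0.03) was -0.17 under library size alone, -0.07 at a mean CPM of at least 5, -0.35 with block less U1, -0.28 with replicates 2 and 3 alone, and -0.32 to 0.25. SNHG16 (0.21) was -0.07 under library size alone, -0.14 with block less U1, -0.09 with replicates 2 and 3 alone, and -0.01 to 0.33. SNHG18 (0.19) was -0.24 under library size alone, -0.11 at a mean CPM of at least 5, and -0.25 to 0.75. SNHG3 (0.15) was -0.05 under library size alone, -0.13 with block less U1, -0.03 with replicates 2 and 3 alone, and -0.18 to 0.40. RNA at 2 h of tunicamycin: GAS5 (-0.05) was -0.32 to 0.08, SNHG12 (-0.12) -0.46 to 0.11, SNHG15 (-0.11) -0.36 to 0.00 and SNHG7 (-0.09) -0.33 to 0.16. SNHG3 (-0.05) was 0.07 with the replicate block and -0.37 to 0.20. ZFAS1 (0.08) was -0.09 under library size alone, -0.11 at a mean CPM of at least 5, -0.03 with the replicate block, -0.40 with block less U1, -0.45 with replicates 2 and 3 alone, and -0.34 to 0.28. RNA at 6 h of thapsigargin with block less U1: GAS5 (0.73) was -0.01, SNHG1 (1.05) -0.30 and SNHG17 (-0.20) 0.44 (adjusted p = 0.0352), or 0.53 with the full block. RNA at 2 h of thapsigargin with block less U1: GAS5 (0.44) was -0.35, SNHG1 (1.09) -0.32, SNHG5 (0.66) -0.15, SNHG16 (0.22) -0.66 (adjusted p = 0.0171) and SNHG6 (0.43) -0.67 (adjusted p = 0.0223). There SNHG16 was -0.07 under library size alone, -0.10 at a mean CPM of at least 5 and -0.10 with the replicate block, and SNHG6 -0.17 with the replicate block. Ratio at 6 h of tunicamycin: GAS5 (-0.48) was 0.18 with replicates 2 and 3 alone. SNHG32 (-0.01) was 0.11 under library size alone, 0.07 with DESeq2, 0.11 at a mean CPM of at least 5, 0.15 with block less U1, 0.20 with replicates 2 and 3 alone, 0.02 over genes passing the filter in each assay, and -0.20 to 0.06. Untreated ratio: SNHG22 (-0.74) was 0.56 with replicates 2 and 3 alone and -2.04 to 0.16, and ZFAS1 (0.05) was -0.07 under library size alone.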
